A study of Mus musculus with 2 samples.

Results

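Transcripts that the GENCODE M21 annotation classes as nonsense-mediated decay (NMD) targets were taken from 2 poly(A)+ RNA-seq libraries of mouse cortex. The class was read from the biotype written in the name of each transcript, so that no measured value chose them. It held 7186 of 141767 named transcripts. They belonged to 4576 genes, of which 4491 also had a protein coding transcript and are called host genes here, and 85 had none. Of the 4576 genes, 2987 had exactly 1 such transcript, and the most in 1 gene was 18.

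Tissue was left cerebral cortex of adult mice of strain B6NCrl, a C57BL/6 substrain, at an age of 6 months. No treatment or modified allele was named, and the 2 libraries, numbered as biological replicates 1 and 2, formed 1 group. Each began with 20 ng of RNA and was fragmented by tagmentation, the cutting of cDNA by a transposase that adds adapters. Both libraries pointed to 1 donor entry and the sex was described as male in one field and as not collected in another, so every spread below is between these 2 libraries and may be technical.

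NMD is the surveillance pathway that degrades an mRNA when a ribosome stops well upstream of the last exon junction. Exon junction complexes left there by splicing recruit the Upf proteins and the kinase Smg1 to the stalled ribosome. Besides removing faulty mRNAs, the pathway is coupled to alternative splicing: many splicing factors control their own level by including a "poison" exon that carries a stop codon, and in neurons this coupling helps set which splicing factors and synaptic proteins are made. An annotated NMD transcript is a prediction from the position of its stop. The libraries came from untreated tissue, so the values below are levels of RNA present, and decay itself was not measured.

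Each transcript had 4 values, since the authors quantified each library by 2 methods. The first transcript tables gave expected counts, TPM (a level scaled for transcript length and for depth) and the percent of the gene's TPM on each transcript. The second transcript tables gave estimated counts and TPM. Values are written below in the order first tables replicate 1 and 2, then second tables replicate 1 and 2. The 2 quantifications read the same libraries and are not replicates of each other. The named transcripts held 51876180 and 26771051 fragments in the first tables and 76100930 and 46367810 in the second, so replicate 2 was the shallower. Of 20 marker genes of cortical cell types, 20 reached 1 TPM in each library, with their gene TPM summing to 7224 and 8091. The neuron markers went both ways between the libraries, with Snap25 at 2359 and 2731 TPM and Rbfox3 at 235 and 125. So did those of excitatory neurons, with Slc17a7 at 82.7 and 37.2 TPM and Neurod6 at 29.4 and 33.5. The inhibitory marker Gad1 was at 114 and 162 TPM.

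The SR proteins, a family of splicing factors with arginine and serine rich tails, are the textbook hosts of poison exons, and the sequences below show where reading stops in them. Each is the coding part of the exon that holds the stop, 5′ to 3′ as in the GENCODE M21 transcript on mm10, with the stop codon in capitals. These are the SR transcripts at a TPM of at least 1 in all 4 values whose stop lies in an exon that the main coding transcript of the gene lacks. The main coding transcript is the protein coding one with the highest mean TPM over the 4 values. The exons were chr5:115328347-115328704 (358 bases, plus strand) in Srsf9, chr16:22258986-22259261 (276 bases, minus strand) in Tra2b, chr2:162932815-162933082 (268 bases, plus strand) in Srsf6 and chr17:29039454-29039909 (456 bases, plus strand) in Srsf3. In Srsf11 they were chr3:158024123-158024231 (109 bases) and chr3:158023243-158023359 (117 bases, both minus strand), and in Srsf4 chr4:131884295-131884482 (188 bases, plus strand). Srsf4-204, whose mRNA start was not found, begins within that exon, so only part of it is shown. In Srsf4-203 the exon is chr4:131884276-131884482 (207 bases), with 115 coding bases against 96.
Srsf9-205: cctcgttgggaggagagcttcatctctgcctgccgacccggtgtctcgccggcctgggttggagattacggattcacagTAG
Tra2b-206: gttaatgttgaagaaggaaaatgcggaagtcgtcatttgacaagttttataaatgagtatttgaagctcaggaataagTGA
Srsf6-201: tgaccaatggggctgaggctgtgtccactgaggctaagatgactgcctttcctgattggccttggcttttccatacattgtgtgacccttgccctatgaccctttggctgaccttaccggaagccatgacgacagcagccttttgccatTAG
Srsf3-201: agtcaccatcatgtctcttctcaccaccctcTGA
Srsf11-206: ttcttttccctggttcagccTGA
Srsf11-212: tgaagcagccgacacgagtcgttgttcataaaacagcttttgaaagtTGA
Srsf4-204: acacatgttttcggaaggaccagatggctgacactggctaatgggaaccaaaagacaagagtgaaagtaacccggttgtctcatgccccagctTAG

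The next 3 sequences are shown because they belong to the NMD transcripts with the highest lowest-of-4 TPM whose stop lies in a cassette exon, one that is inserted between 2 exons the main coding transcript joins directly. They were chr7:24886107-24886187 (81 bases, plus strand) in Rps19, chr14:29970800-29970862 (63 bases, plus strand) in Selenok and chr3:105957870-105958036 (167 bases, minus strand) in Atp5f1. Capitals again mark the stop codon.
Rps19-205: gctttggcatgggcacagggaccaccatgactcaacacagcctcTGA
Selenok-203: gttcctgcccTAG
Atp5f1-203: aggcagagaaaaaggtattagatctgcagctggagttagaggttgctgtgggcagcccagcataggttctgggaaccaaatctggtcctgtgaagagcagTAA

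The NMD transcript with the highest lowest-of-4 TPM, Ppia-201, differed from its main coding transcript in the coding region by 5 bases at chr11:6415980-6415984 (plus strand), where an exon ran 5 bases further at its end. Below, capitals mark those 5 bases, after which the reading frame shifts, and the last 3 letters are the stop codon TGA of the shifted frame.
Ppia-201: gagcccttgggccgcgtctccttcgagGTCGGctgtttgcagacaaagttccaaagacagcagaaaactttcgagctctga

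Structure, which the biotype rule uses only through the stop, was read from the annotation for all members of the class. A stop was annotated for 7184 of the 7186, and 7150 (99.5%) had it at least 50 bases before the last exon junction, the distance beyond which a stop is taken to trigger NMD. The annotation assigns the class from this position, so the share describes its rule. The median distance was 334 bases (interquartile range 160 to 741), 21 stops lay 0 to 49 bases before that junction and 13 lay after it. The transcripts had a median of 7 exons and a median length of 1255 bases, against 1838 for protein coding transcripts of the same hosts. Their median coding length was 303 bases, against 1383 for the main coding transcript.

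**Figure D1:**
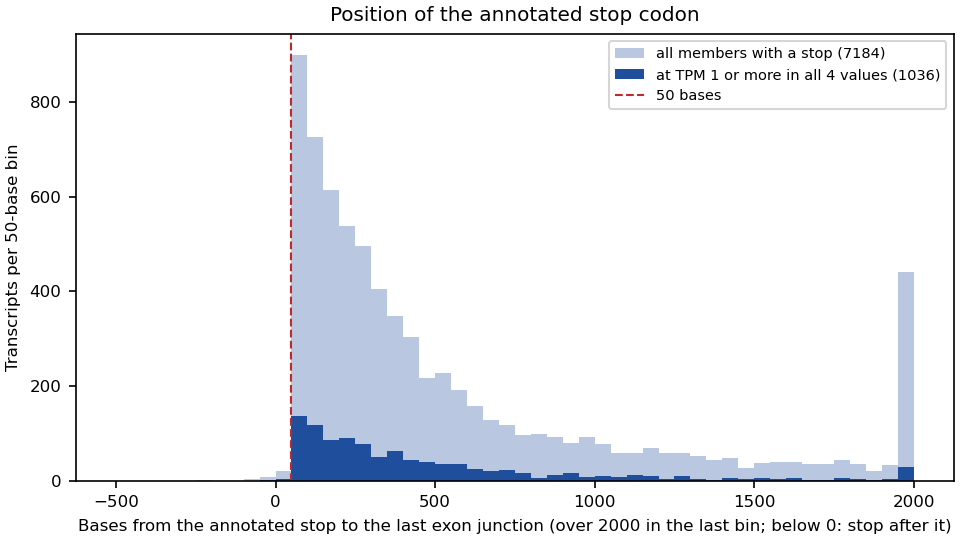
Distance in bases from the annotated stop codon to the last exon junction (x axis) for all NMD transcripts with a stop and for those at a TPM of at least 1 in all 4 values, counted per 50-base bin (y axis). The dashed line is at 50 bases; 7150 of 7184 lie at or beyond it, and the median is 334 bases.

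The place of the stop fell into a few kinds. In 3845 (53.5%) it lay in sequence that the main coding transcript also contains. Whether a change of frame or a skipped or altered exon brought it about was not read. A cassette exon held it in 1133 (15.8%), another exon absent from the main coding transcript in 873 (12.1%), and an added part of a shared exon in 895 (12.5%). In 343 (4.77%) it was the normal stop of the main coding transcript, made premature by a junction downstream, which is the arrangement of Srsf2. The cassette exons had a median length of 115 bases (interquartile range 84.0 to 159), with a median of 35 coding bases up to and including the stop. Of these exons, 385 (34.0%) had a length divisible by 3, so that inserting them does not by itself shift the reading frame.

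Much of the class was hard to tell from its neighbours by sequence. No base outside the gene's coding transcripts was found in 2841 (39.5%). Of the 31-base words in a transcript, those found in no other annotated transcript (on either strand) numbered 0 in 950 of the 7186 and 1 to 30 in 3036, which is what a single specific junction gives. Over 30 such words were found in 3200. For 169 and 507 of the 1037 transcripts detected in all 4 values the number was 0 and 1 to 30, so their levels rest on how each method divided fragments among isoforms.

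NMD transcripts held 2.48% and 2.79% of all TPM in the first tables (2.63% ± 0.220, mean ± SD, n = 2 libraries) and 2.62% and 2.89% in the second (2.76% ± 0.188). The means of the 2 quantifications differed by less than the SD between libraries, and replicate 2 was the higher in both. Retained intron transcripts, the other large class of non-productive splice products, held 3.94% ± 0.482 and 3.22% ± 0.453 by the first and second tables. Protein coding transcripts held 78.0% ± 0.403 and 62.5% ± 4.11. In the second tables mitochondrial tRNA, at 8.86% ± 1.18, and lincRNA, at 8.26% ± 3.83, took a larger part of the denominator than in the first.

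By fragments instead of TPM the class held 1.91% (95% Clopper-Pearson interval 1.91 to 1.92) and 2.10% (2.10 to 2.11) in the first tables, and 2.90% (2.90 to 2.90) and 2.79% (2.79 to 2.80) in the second. These intervals cover counting error only, since PCR copies are not independent molecules. The order of the libraries by fragments was therefore opposite in the 2 quantifications. Tatdn1-205, of a gene related to TatD nucleases, held 27.6% and 22.2% of the class's fragments in the second tables and 0.00334% and 0.00446% in the first. Without Tatdn1 the shares by fragments were 1.91%, 2.10%, 2.12% and 2.19%, higher in replicate 2 in both quantifications. Lars2-209 held 6.96% and 2.43% of the fragments in the second tables, and without Lars2 the shares there were 2.70% and 2.73%. In TPM Tatdn1-205 held 24.2% and 18.2% of the class in the second tables and 0.00262% and 0.00337% in the first. Without Tatdn1 the share of TPM was 2.48%, 2.79%, 2.00% and 2.37%. With Tatdn1 kept and transcripts under 300 bases left out, it was 2.57%, 2.88%, 3.44% and 3.51%. The near equality of the quantifications thus depended on which transcripts were counted, and both of these sets were chosen after seeing the data. Within host genes, NMD transcripts held 11.5%, 12.6%, 15.4% and 15.4% of TPM, with Tatdn1 included.

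At a TPM of at least 1 in all 4 values, 1037 NMD transcripts (14.4%) were detected, in 919 genes. Over all named transcripts the same rule detected 15.6%, over protein coding transcripts of host genes 31.03% and over their retained intron transcripts 5.86%. The class thus stood near the share for all transcripts, below the coding and above the intron-retaining isoforms of its own genes. By the first tables alone 1225 were detected and by the second 1214. At the other end, 1803 were listed at 0 in all 4 values. At least 10 TPM in all 4 values was reached by 195, and at least 100 TPM by 18.

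Detection was set beside the transcript support level, of which 1 is the best that GENCODE gives. Detected in all 4 values were 364 of 2080 NMD transcripts with level 1 (17.5%), 19.7% of the 517 with level 2, 172 of 1249 with level 3 (13.8%) and 279 of 2351 with level 5 (11.9%). Level 2 thus stood above level 1, and levels 3 and 5 below both. Of the 5107 not tagged as lacking the start of the mRNA 857 (16.8%) were detected, and of the 2079 whose mRNA start was not found 180 (8.66%). By kind of stop the shares were close: 13.4% for cassette exons, 11.2% for other exons of their own, 15.1% for added exon parts, 15.4% for shared sequence and 14.9% for the stop of the main coding transcript.

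The TPM of the class sat on few transcripts. The 10 highest held 40.7%, 39.7%, 51.4% and 46.4% of it, and 50% was reached with 23, 25, 9 and 15 transcripts. Of the 20 NMD transcripts with the highest lowest-of-4 TPM, 12 had the highest TPM of their gene in all 4 values. The stop lay in shared sequence in 15, in a cassette exon in 3 and in another own exon in 2 (Mobp-204 and Serf2-205). For 12 of the 20, 30 or fewer words were found in no other transcript.

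Ppia encodes cyclophilin A, an abundant protein-folding enzyme. Ppia-201 was at 4244, 4032, 2786 and 3022 TPM, which was 65.3%, 64.4%, 59.6% and 60.1% of the gene, while the main coding transcript Ppia-202 was at 870, 642, 395 and 193 TPM. The NMD transcript stood above the coding one in all 4 values. Of its 716 words, 625 also occurred in transcripts of 56 other genes and 29 in no other transcript, so its level is uncertain to the extent that fragments were shared. Hsp90ab1, a cytosolic chaperone, had Hsp90ab1-206 at 808, 1094, 633 and 885 TPM, or 36.7% to 43.8% of the gene. The chaperone subunit gene Pfdn5 had Pfdn5-201 at 291, 416, 215 and 291 TPM, and its main coding transcript was at 351, 545, 191 and 303, above it in all but the third value.

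Ribosomal protein genes gave 5 of the 20, of which 3 are described here. Rpsa-206 was at 319, 447, 238 and 333 TPM, against 95.7, 52.7, 49.7 and 49.9 for its main coding transcript. Rps19-205, whose cassette exon is shown above, was at 202, 218, 320 and 563 TPM, and Rpl13a-216 at 281, 274, 116 and 128. Rps19-205 was higher in the second tables and Rpl13a-216 lower. Ribosomal protein genes have many processed pseudogenes, so that these levels too are uncertain where reads could be shared.

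Genes of mitochondria followed. Ndufa3, a subunit of respiratory complex I, had Ndufa3-204 at 1070.0, 995, 606 and 626 TPM, 59.2% to 77.2% of the gene, with no word of its own. Atp5f1, a subunit of the ATP synthase stalk, had Atp5f1-203 at 186, 259, 139 and 235 TPM. Its main coding transcript was at 219, 232, 157 and 166 TPM, so the order of the 2 differed between the libraries. Mrps14-201, of a mitochondrial ribosomal protein gene, was at 189, 239, 143 and 186 TPM and made up 83.2% to 85.7% of its gene. Smdt1-204, of a regulator of the mitochondrial calcium uniporter, was at 176, 158, 138 and 160.3 TPM.

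The others were of mixed function. Selenok, a selenoprotein of the endoplasmic reticulum, had Selenok-203 at 199, 318, 201 and 278 TPM, 53.6% to 71.9% of the gene. Prdx6-208, of a peroxiredoxin abundant in astrocytes, was at 408, 411, 319 and 348 TPM. Vti1b-203, of a SNARE protein of endosomes, was at 162, 222, 116 and 189 TPM, and Rab11b-204, of a GTPase of recycling endosomes, at 176, 212, 114 and 133. The proteasome subunit transcript Psma3-201 was at 157, 140.2, 114 and 109 TPM, and Serf2-205 at 108, 165, 118 and 151. All of these stood within a 2-fold span between the libraries in each quantification.

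Mobp, a myelin protein of oligodendrocytes, stood apart for how distinct its NMD transcript is. Mobp-204 had 1817 words found in no other transcript and was at 142, 116, 98.2 and 91.0 TPM, 67.0% to 79.6% of the gene, against 17.1, 14.7, 12.7 and 12.4 for the main coding transcript. Mobp-204 was above the main coding transcript in all 4 values. Of its 2039 bases found in no coding transcript, 1960 lay in its last exon, after the stop. Its own words thus mostly mark that exon, and not the 225-base exon that holds the stop. In bulk tissue, fewer cells of a type and less RNA per cell cannot be told apart.

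The NMD share of a host gene, the percent of the gene's TPM on its NMD transcripts, was read where the gene had at least 10 TPM in all 4 values. This left 1851 of the 4491 hosts, with 3022 NMD transcripts. The median share was 2.28%, 2.44%, 2.91% and 3.30%. The distribution was strongly skewed: 924 hosts were under 5% in all 4 values and 489 of them under 1%, while 276 (14.9% of the 1851) were at 20% or more in all 4 values, 75 at 50% or more and 14 at 80% or more. A further 207 passed 20% in some values and not in others. In 184 of the 276 the leading NMD transcript had 30 or fewer words of its own.

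Across the 1851 hosts the shares of the 2 libraries had a Spearman rho of 0.868 in the first tables and 0.894 in the second. Between quantifications rho was 0.904 in replicate 1 and 0.917 in replicate 2. These are descriptions across genes, which are not independent replicates and share their libraries and annotation. The median absolute difference was 1.08 and 1.15 percentage points between libraries and 0.911 and 0.872 between quantifications. A difference of at least 20 points was seen between libraries for 58 and 46 hosts, and between quantifications for 40 and 19.

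An NMD transcript had the highest TPM of its gene in all 4 values in 106 of 3022 cases (3.51%). Among all transcripts of these hosts the share was 8.19%, and among protein coding ones 16.0%, so NMD transcripts led less than the background of their own genes. Retained intron transcripts led in 0.796%. The 106 made up 7.45% of all leading transcripts.

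Gene groups were compared by counts and medians, beside the values over all hosts. The lists were chosen with earlier results of these data known, so the comparisons are descriptions only. For SR proteins, 11 of the 13 annotated genes held an NMD transcript and 9 passed the minimum. Their median share was 15.5%, 15.2%, 14.9% and 16.4%, against 2.28% to 3.30% over all hosts, and 3 of 9 (Srsf9, Tra2b and Srsf2) were at 20% or more in all 4 values, beside 14.9% of all hosts. These 9 genes had 16 NMD transcripts, of which 8 were detected in all 4 values. In 7 of those 8 the stop lay in an exon that the main coding transcript lacks. The members of the family differed widely, from about nothing in Srsf5 to about 50% in Srsf9.

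Srsf9, which acts in splice site choice, had the highest lowest-of-4 share of the family. Srsf9-205 was at 11.4, 13.8, 9.63 and 12.1 TPM, against 12.9, 9.08, 9.82 and 7.10 for the main coding transcript, and made up 43.9%, 51.3%, 46.6% and 51.8% of the gene. Replicate 2 was the higher in both quantifications. The expected counts of Srsf9-205 were 562 and 356, 29 words were its own, and its mRNA start was not found.

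Tra2b encodes a splicing activator that binds GA-rich exons and whose poison exon is a classic example of self-regulation. Tra2b-206 was at 8.05, 11.9, 13.98 and 13.3 TPM. The share of the gene on its 3 NMD transcripts was 25.3%, 35.7%, 48.2% and 43.9%, so the order of the libraries differed between quantifications. Tra2b-207 and Tra2b-209 were at 0.380 TPM or less in all 4 values. The paralogue Tra2a did not reach the gene minimum, and its cassette transcript Tra2a-202 was at 0.260, 0.600, 0.433 and 1.08 TPM.

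Srsf2, a core SR protein, differed most between the libraries. Srsf2-204, which carries the normal stop followed by further junctions, was at 31.7, 41.1, 17.5 and 46.0 TPM, and its share of the gene was 26.1% and 50.5%, then 20.0% and 57.5%. The main coding transcript differed in the opposite direction, at 74.9, 23.4, 55.6 and 19.1 TPM. Srsf2-204 had no word of its own, and the other NMD transcript of the gene, Srsf2-202, was at 0 in the first tables. The mRNA start of Srsf2-204 was not found. As annotated it has 620 bases and begins in the exon that holds the stop.

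Srsf6 varied between values, and Srsf3 depended on the method. Srsf6-201 was at 2.59, 7.74, 5.09 and 6.61 TPM, a share of 15.5%, 34.4%, 36.2% and 36.5%, with 1 low value. Srsf3, the smallest SR protein and itself a regulator of the poison exons of its family, had Srsf3-201 at 6.50, 7.35, 10.7 and 13.4 TPM. The share of Srsf3 was 6.24% and 7.51% in the first tables and 14.1% and 16.4% in the second, so that the 2 methods did not overlap.

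Srsf11, Srsf4, Srsf7 and Srsf5 had lower shares. In Srsf11 it was 16.7%, 15.2%, 14.9% and 14.4%, divided between Srsf11-206 (7.31 to 9.14 TPM) and Srsf11-212 (3.37 to 8.07 TPM, mRNA start not found). In Srsf4 it was 6.50%, 8.50%, 7.31% and 9.24%. Srsf7, with a cassette exon of 460 bases, was at 2.55%, 2.30%, 3.25% and 2.26%, and in Srsf5 it was 0 in 3 values and 0.120% in 1. Srsf11 varied little between values, Srsf7 was near the median of all hosts and Srsf5 below it.

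**Figure D2:**
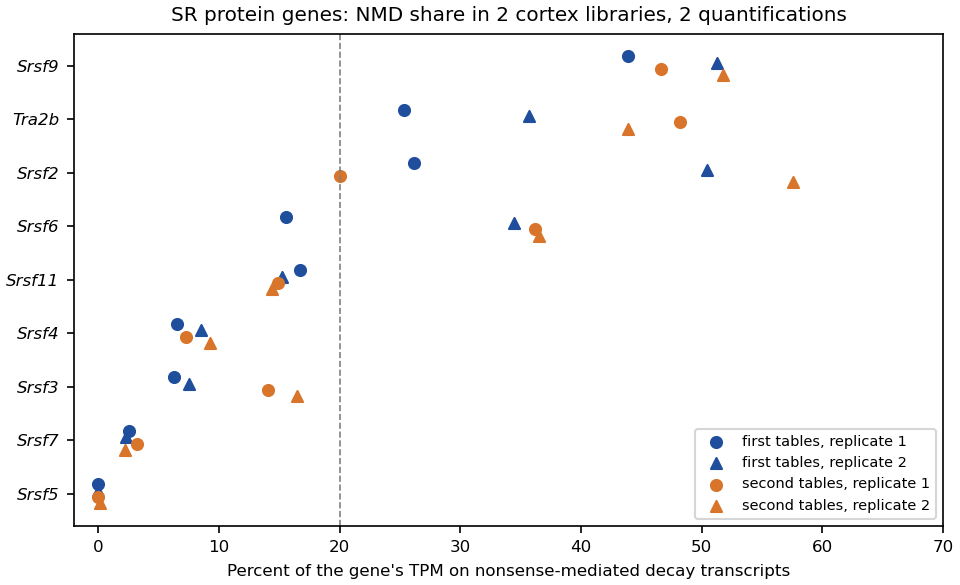
Percent of gene TPM on NMD transcripts (x axis) for the 9 SR protein genes past the minimum (y axis), with 1 point per library and quantification and a dashed line at 20%. Srsf9, Tra2b and Srsf2 lie at 20% or more in all 4 values, and Srsf2 spans 20.0% to 57.5%.

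hnRNP proteins, which package nascent RNA and often oppose SR proteins, had 10 hosts past the minimum with medians of 4.80%, 5.53%, 4.16% and 4.58%, and 1 of 10 at 20% or more. That gene was Hnrnpu, at 74.9%, 55.4%, 73.3% and 58.3%. Hnrnpu-206 was at 60.8, 10.2, 44.9 and 9.80 TPM, and the whole gene was lower in replicate 2 (81.3 and 23.8 TPM in the first tables). Hnrnpr was at 15.4%, 29.3%, 20.3% and 31.5%, higher in replicate 2. Hnrnpdl, where the NMD transcript carries the normal stop, was at 17.1%, 11.4%, 30.6% and 16.6%, and Pcbp3 at 0 in all 4. Hnrnpd did not reach the gene minimum, and Hnrnpd-204 was at 1.15, 1.57, 0.190 and 3.04 TPM.

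Other regulators of alternative splicing, among them neuronal ones, had 11 hosts past the minimum, with medians of 14.3%, 11.9%, 10.03% and 10.9%, above those of all hosts, and 1 of 11 (Rbm5) at 20% or more. Rbm5, a regulator of apoptosis genes' splicing, was at 39.0%, 33.2%, 42.4% and 36.5%. Tardbp, whose protein TDP-43 is known to limit its own mRNA, was at 26.7%, 20.0%, 22.1% and 18.4%, with 2 of the 4 under 20%. Ptbp2, the neuronal polypyrimidine tract binding protein, was at 9.44%, 13.0%, 7.27% and 10.5%, from 47.2 and 50.3 expected counts of Ptbp2-206. Matr3 was at 0.0905% or less.

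Kinases that phosphorylate SR proteins had 5 hosts past the minimum, with medians of 8.72%, 9.87%, 8.12% and 12.9% and 0 of 5 at 20% or more. Srpk2 was at 9.79%, 14.2%, 8.95% and 12.9% and Clk4 at 8.52%, 9.87%, 12.7% and 13.2%, while Srpk1 was at 0.111% or less. Clk1 did not reach the gene minimum, with Clk1-210 at 0.490, 1.24, 0.297 and 1.64 TPM.

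The core spliceosome had 20 hosts past the minimum with medians of 3.07%, 3.82%, 3.22% and 4.22%, close to all hosts, and 4 of 20 (among them Sf3b1, Snrpa1 and Pnn) at 20% or more. Sf3b1, a subunit of the U2 particle that recognises the branch site, was at 51.5%, 57.3%, 47.3% and 53.2%, through a cassette exon of 56 bases in Sf3b1-208. Snrpa1, another U2 protein, was at 51.7%, 52.8%, 45.3% and 59.1%. Both stayed between 45.3% and 59.1% in every value. Snrnp70 of the U1 particle was at 2.99% and 15.1%, then 2.52% and 10.8%, higher in replicate 2 by either method, on 17.8 and 55.5 expected counts of Snrnp70-204. Srrm2 was at 0.197% or less.

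Factors of NMD itself and of the exon junction complex had few hosts past the minimum. They were 2 of 28 genes, Magohb at 8.47%, 38.7%, 2.54% and 6.71% and Ruvbl2 at 0, 0, 2.26% and 3.97%, with 0 of 2 at 20% or more. Smg1, the kinase of the pathway, did not reach the gene minimum, and its NMD transcript Smg1-204 was listed at 0 in all 4 values.

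Cytosolic ribosomal proteins had 18 hosts past the minimum with medians of 1.77%, 1.54%, 1.34% and 1.49%, below those of all hosts, and 3 of 18 (among them Rpsa and Rpl12) at 20% or more. Rpsa, a protein of the small subunit, was at 73.9%, 81.3%, 76.5% and 82.1%. Rpl3, a known case of self-regulated splicing, was at 0.213%, 0.143%, 0.302% and 0.228%, and Rps13 at 0.0166% or less. Rps19 was at 10.2%, 9.85%, 27.6% and 36.3%, so that it passed 20% by the second tables alone, and Rpl13a at 19.3%, 18.5%, 10.4% and 9.95%. By the second tables alone 4 of the 18 were at 20% or more. The middle of the list carried little, with these genes between it and the highest.

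Translation factors had 8 hosts past the minimum with medians of 4.89%, 7.38%, 7.90% and 9.12%, and 2 of 8 at 20% or more. Eif4a2, an RNA helicase of initiation, was at 52.4%, 48.9%, 22.5% and 32.8%, and Eif4g1, the scaffold it binds, at 29.8%, 34.3%, 20.7% and 24.9%. The share of Eif4a2 was lower in the second tables in both libraries, while Eif4a2-210, its NMD transcript with the highest mean TPM, was at 128, 233, 88.5 and 220.1 TPM. In replicate 1 of the first tables Eif4a2-217 stood above it, at 147 TPM. Eif6 was at 0.334% or less.

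Genes of polyamine metabolism and selenoproteins had 7 hosts past the minimum and 1 at 20% or more, Selenok (53.6%, 67.8%, 62.3% and 71.9%). Sms, spermine synthase, was at 18.5%, 17.3%, 15.5% and 18.3%, and the thioredoxin reductase gene Txnrd2 at 0.671% or less. The median of the list was 4.15%, 2.32%, 4.84% and 4.50%.

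Nuclear genes of the respiratory chain and ATP synthase had 20 hosts past the minimum with medians of 1.17%, 1.22%, 1.67% and 2.28%, and 4 of 20 (Ndufa3, Ndufs4, Atp5f1 and Ndufa10) at 20% or more. Ndufs4, a complex I subunit, was at 61.4%, 53.6%, 58.2% and 53.2%. Cox6c, at a gene TPM of 2657 to 3326, was at 0.147% or less. As in the ribosomal list, a few genes were high and the middle of the list was low.

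Synaptic and ion channel genes had 13 hosts past the minimum, with medians of 0.867%, 0.317%, 0.971% and 1.14%, below those of all hosts, and 0 of 13 at 20% or more. The list of 57 genes did not cover all receptors and channels of neurons. Outside it, chosen after their values were seen, the GABA-A receptor subunit genes Gabra2 (59.5%, 64.5%, 63.9% and 61.2%) and Gabra4 (34.3%, 33.5%, 28.5% and 24.1%) and the potassium channel gene Kcna6 (33.3%, 32.2%, 58.2% and 42.7%) were at 20% or more in all 4 values. The highest in the list by the lowest of 4 values were Nrxn3, a presynaptic adhesion protein, at 9.61%, 8.13%, 9.72% and 10.7%, and Dlg1, a scaffold of glutamate receptors, at 16.5%, 13.2%, 10.9% and 7.71%. Dlg4, which encodes PSD-95 and is known for an exon whose skipping outside mature neurons leads to NMD, was at 0.173%, 0.158%, 0.137% and 0.0853%. Gabbr1, a GABA receptor subunit, was listed at 0 in all 4 values, and Scn1a, a sodium channel, was at 1.39%, 1.57%, 0.114% and 0.660%. Among cell type markers, Gad1 and Mbp were hosts past the minimum, at 0.272% and 0.00631% or less.

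**Figure D3:**
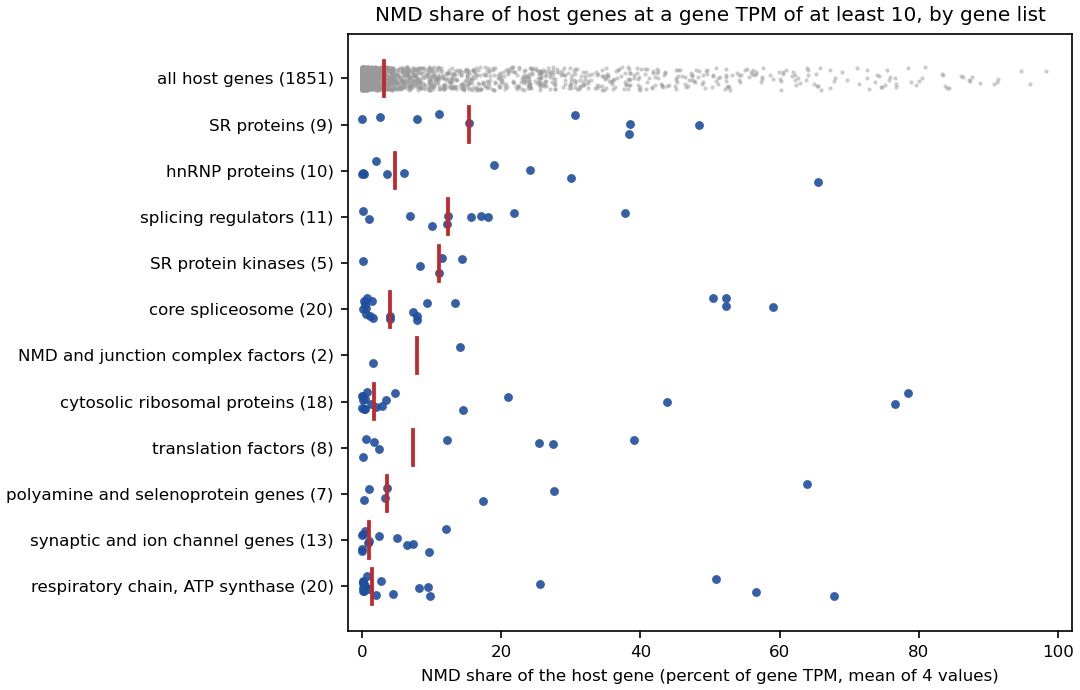
NMD share of each host gene past the minimum (x axis, mean of 4 values) by gene list (y axis, number of genes in brackets), with the list median as a red bar. The medians of the ribosomal, respiratory and synaptic lists lie left of that of all hosts (3.08%). Those of all other lists lie right of it, from 3.63% for polyamine and selenoprotein genes to 15.3% for SR proteins. They include NMD factors (7.83%, on 2 genes) and translation factors (7.31%).

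The 12 hosts with the highest lowest-of-4 share had 82.5% or more of their TPM on NMD transcripts in every value. Rpgrip1, a protein of the photoreceptor cilium, was at 97.7%, 99.0%, 97.8% and 98.8%, almost wholly from Rpgrip1-217, whose mRNA start was not found. Hyi, hydroxypyruvate isomerase, was at 96.1%, 95.1%, 93.8% and 94.1%, with its main coding transcript listed at 0. Lars2, the mitochondrial leucyl-tRNA synthetase, was at 97.9%, 91.5%, 98.7% and 96.0%. Lars2-209 was at 279, 92.8, 572 and 209.6 TPM, lower in replicate 2 by both methods and higher in the second tables. Of the 3726 words of Lars2-209, 35 were its own and 42 were shared with 2 other genes. The main coding transcript of Lars2 was at 5.55, 8.24, 7.02 and 8.45 TPM, and that of Rpgrip1 at 0.670 TPM or less.

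The next were Zdhhc3, a palmitoyltransferase with 8 NMD transcripts (90.2% to 93.0%), and Atp2a2, the SERCA2 calcium pump of the endoplasmic reticulum (88.8% to 97.4%). In Atp2a2-203 the annotated coding length was 3132 bases, longer than the 2994 of the main coding transcript, and 478 words were its own. Its class therefore did not come with a shortened reading frame, but with a junction 1258 bases after the stop. The share of Atp2a2 is thus not a share of shortened coding sequence. Syt16, of the synaptotagmin family, was at 85.9% to 90.9% through a cassette exon of 821 bases with 818 words of its own. Adhfe1, an alcohol dehydrogenase (87.9% to 92.9%), Kmt2e, a chromatin regulator (86.8% to 88.2%), Aptx, a DNA repair protein (85.0% to 87.3%), Naa25, a subunit of an acetyltransferase (82.5% to 92.5%), and the mitochondrial ribosomal genes Mrpl32 (85.2% to 87.0%) and Mrps14 (83.2% to 85.7%) completed the set. Most leading transcripts of the set had few words of their own. These numbered 0 in Zdhhc3-201 and Aptx-205, and 27 in Hyi-202, Adhfe1-201 and Kmt2e-207. Naa25-205 had 29, Mrpl32-201 30, Mrps14-201 52 and Rpgrip1-217 259. Where they were few, the shares rest on how each method divided fragments among isoforms.

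The 2 quantifications were set side by side as log2 ratios of TPM + 0.1 at a mean TPM of at least 1 over the 4 values. Of 1542 NMD transcripts, 93 (6.03%) were at least 2-fold higher in the second tables in both libraries, against 5.29% of all transcripts, and 57 (3.70%) were at least 2-fold lower, against 4.05%. Both shares were near the background. The median log2 ratio was -0.27 and -0.20 in the 2 libraries, against -0.39 and -0.26 over all transcripts.

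The extremes were few and large. Tatdn1-205 was at 0.650 and 0.940 TPM in the first tables and 6341 and 5259 in the second, where it was 99.9% and 99.8% of its gene. Of its 1397 words, 796 were its own and 27 were shared with other genes. Cox8a-202, of a cytochrome oxidase subunit, was at 0.520, 1.08, 48.8 and 88.9 TPM, and Ywhae-203, of a 14-3-3 protein, at 0, 10.4, 70.5 and 80.3. Ppp2r1a-207, of the scaffold of protein phosphatase 2A, was listed at 0 in the first tables and was at 29.9 and 11.0 TPM in the second. Yeats4-202 was at 0, 0.350, 8.09 and 12.1 TPM.

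In the other direction Rpl12-201 was at 231 and 362 TPM in the first tables and 3.19 and 3.50 in the second. The main coding transcript of Rpl12 was lower there too, at 80.2 and 95.2 TPM against 8.51 and 10.1, so that the whole gene differed. Eif4a2-217 was at 147, 163, 6.91 and 8.46 TPM and Eif4a2-204 at 89.3, 101, 8.31 and 15.8. The main coding transcript of Eif4a2 was higher in the second tables (239 and 329 TPM) than in the first (103 and 175). Mdh2-203, of mitochondrial malate dehydrogenase, was at 90.6, 86.8, 4.93 and 16.3 TPM, and Psmd13-211, of a proteasome subunit, at 8.61, 12.6, 0.334 and 3.55. What set these ratios was not tested.

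Between the libraries, 155 of the 1542 (10.1%) were at least 2-fold higher in replicate 2 in both quantifications, against 5.63% of all transcripts and 5.06% of protein coding transcripts of host genes. At least 2-fold lower were 142 (9.21%), against 9.73%. Centred on the median ratio of all transcripts, 123 (7.98%) were higher, against 4.56% of all transcripts, and 161 (10.4%) lower, against 11.2%, so that the larger of the 2 counts changed side. With 1 library against 1 in a single group, no p is given. The median log2 ratio of replicate 2 over replicate 1 was 0.19 and 0.28 for NMD transcripts by the first and second tables, 0.05 and 0.20 for all transcripts, and 0.06 and 0.20 for coding transcripts of hosts. Retained intron transcripts of hosts were at 0.06 and 0.16, with 9.32% of them higher in replicate 2.

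Depth and fragment length moved with the same comparison. Replicate 2 had fewer fragments, and the median fragment length implied by the deposited effective lengths of transcripts of 3000 bases or more was 164 and 124 bases by the first tables and 134 and 98.3 by the second. The median length of detected NMD transcripts was 1199 bases, against 2345 for detected coding transcripts of hosts. The part of depth, fragment length and transcript length in the difference was not tested.

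The largest differences were switches between a listed 0 and a clear level. Higher in replicate 2 were Eef1b2-208, of a translation elongation factor, at 0, 73.6, 1.53 and 49.5 TPM, and Trf-205, of transferrin, which oligodendrocytes make in brain, at 0, 24.3, 0 and 81.9. Cpne6-204, of the brain protein copine 6, was at 0, 10.2, 1.82 and 15.3 TPM, Reep5-203 at 0, 43.9, 6.92 and 60.1, and Vta1-202 at 0, 21.02, 0 and 3.26. The main coding transcripts of these genes differed less, for example Trf-201 at 396, 517, 259 and 339 TPM.

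Lower in replicate 2 were Prkcb-205, of a protein kinase C of neurons, at 24.1, 0.250, 26.8 and 0.291 TPM, and Glg1-202, of a Golgi protein, at 14.6, 0, 13.0 and 0. The sorting nexin transcript Snx27-207 was at 11.0, 0, 17.2 and 0 TPM. Ppp2r5e-202, of a phosphatase regulatory subunit, was at 10.8, 0, 10.5 and 0.0338 TPM and 1700025G04Rik-202 at 12.1, 0, 11.5 and 0.420. For Prkcb the main coding transcript was lower in replicate 2 as well, at 209 and 63.4 TPM in the first tables, while those of Glg1 (14.5 and 13.97) and Snx27 (13.98 and 12.7) differed little.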

How the data were processed

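Poly(A)+ RNA-seq of 2 cortex libraries was read from transcript tables on mm10 with GENCODE M21, per the submitters' deposited notes. First tables hold expected counts, TPM and percent of the gene's TPM per transcript, as the authors deposited them, per the file headers. The second hold estimated counts and TPM, per the file headers. Aligner and quantifier: not given in the sources used here. Spike-in rows (97) and rows with numeric names (26248) were left out. All 141767 transcripts matched GENCODE M21 in name, length and biotype. Percents of gene TPM recomputed here matched the deposited isoform percent to within 0.0658 points.

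Which transcripts belong to the class was set by the annotation. The choice of this class, the gene lists and the rules were made with earlier results of these data known. Named transcripts were all those of SR genes past the minimum, the 20 highest by lowest-of-4 TPM, the 12 hosts with the highest lowest-of-4 NMD share, the 5 largest ratios in each direction between quantifications and between libraries where the mean was 5 TPM or more, the 2 highest hosts and the lowest of each of 11 lists, and 22 fixed genes where they held a member; a few of these are left out of the text. With 1 group of 2 libraries no test was run. Calls are by size, in all values stated, with a pseudocount of 0.1, which understates ratios of low transcripts. Python 3.11.15, pandas 2.3.3, numpy 2.4.6 and scipy 1.17.1 were used. On simulated data the share rule recovered 200 of 200 hosts made with a 40% share among 1851, and the ratio rule 186 of 200 members made 4-fold higher among 501. These made effects lay well past the thresholds of 20% and 2-fold. The simulation thus checked the working of the rules and gives no error rate for the calls in these data.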

Additional observations from a re-analysis of the deposited data

How the results depend on the processing

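No paired analysis was possible because the labels gave only 1 group. The share of TPM, 2.63%, became 2.01% by counts, 12.04% over host genes alone, 2.92% without mitochondrial genes and 0.605% with only members of at least 50 words of their own. In alternatives chosen after seeing the data, the second tables gave 2.19% without Tatdn1, 2.15% of counts without it and 3.47% without transcripts under 300 bases. At 5 TPM 453 members were detected. The median host share, 2.36%, was 2.74% at a gene TPM of 1, 1.47% at 50, 3.10% in the second tables and 1.35% by counts. Hosts with a high share numbered 451 at 10% and 75 at 50%, and 502 and 78 at a gene TPM of 1 and 50. Leading members were 179 and 34 at those minimums.

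Members higher and lower in the second tables were 58 and 35 with a pseudocount of 1, 23 and 15 at a mean TPM of 5, and 296 and 132 with no filter. Members higher and lower in replicate 2 were 89 and 94, 43 and 39, and 477 and 564 under the same settings. By the first or second tables alone 274 or 259 were higher in replicate 2. Centred on the median ratio of all transcripts, 123 were higher and 161 lower. The number of hnRNP hosts at 20% or more was 3 by the second tables alone, in place of 1.

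Without replicate 1 or without replicate 2 the share was 2.79% or 2.48%, detected members 1546 or 1510, the median host share 2.44% or 2.28%, hosts with a high share 365 or 309, leading members 160 or 127, members higher by the second quantification 153 or 174 and lower 94 or 161. The counts could only stay or rise, since 1 library had to meet each rule in place of both. The share and the median host share became those of the library kept. What set the difference between the libraries was not tested. Of 87 alternatives, 49 stayed within the spread of the libraries or within 1.5 times the count. Some of the 49 could not do otherwise. For the share and the median host share, either library alone lies within the SD of the 2 by construction. Lists that stayed at 0 hosts were also counted as unchanged. The 49 is therefore no measure of stability. Members with few fragments, such as Ptbp2-206 and Snrnp70-204, are the least precise.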
